A study of Triticum aestivum with 24 samples.

Results

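The subject is 3 beta-tubulin genes of bread wheat (Triticum aestivum), tubb1, tubb2 and tubb3, each read by 1 probe set of the Affymetrix wheat array: Ta.212.1.S1_at for tubb1, Ta.1544.1.S1_at for tubb2 and Ta.2837.1.S1_s_at for tubb3. They were chosen by a measured value, the change between dry and wet leaves at grain filling, from 61290 probe sets, so that change is given below as a description with no test. The series held 24 arrays of flag leaf RNA from greenhouse plants of the cultivars TAM 112 and TAM 111, each at grain filling and at heading and each under dry and wet conditions, with 3 replicates in each of the 8 groups. The labels give 50% and 90% of field capacity as the water levels without stating which of them the words dry and wet stand for. They do not say whether the replicates came from separate plants, so each p-value measures only the spread between these samples.

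Beta-tubulin pairs with alpha-tubulin to form the dimer from which microtubules are built. In plant cells the microtubules under the plasma membrane guide the laying down of cellulose, others form the spindle and the plate at which dividing cells part, and plants carry a family of beta-tubulin genes whose members differ in the tissues and stages in which they are used. The flag leaf is the last leaf below the ear, and during grain filling it feeds the grain and then senesces.

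Expression is given as the MAS5 signal, a brightness per probe set on the linear scale that the authors scaled to the same trimmed mean, 500.1, on every array. All 3 members lay above 69.0, the median signal of all probe sets other than controls, on 24 of 24 arrays. Differences are on the scale of log2(signal + 11.71) and came from a limma model with a mean for each group, with p-values adjusted by the Benjamini-Hochberg method over the 37516 probe sets that exceeded 69.0 on at least 3 arrays, and a probe set was called at an adjusted p below 0.05. Signals of different probe sets depend on their probes and are not compared between genes here. In a whole leaf, fewer cells of a type and less RNA per cell cannot be told apart.

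Leaf genes were bright on every array, and genes of the grain and anther were dim. Summed signals of 6 photosynthesis genes, all 6 above 69.0 in every group, ran from 175304 to 260189 per array, whereas 6 gliadin and glutenin genes of the grain summed to 118 to 503 and the anther genes raftin1a and raftin1b to 13.7 to 125. On the principal component that separated the cultivars (14.8% of the variance), TAM 112 arrays scored 29.5 to 51.4, and 9 of the 12 TAM 111 arrays scored -62.0 to -45.2. The other 3, replicate 2 of TAM 111 in both heading groups and in wet leaves at grain filling, scored -10.5 to -1.7, between the cultivars. They were kept, and values without them are given where the direction or the call of a tubulin value changed. Other values moved too. On the log2 scale, tubb1 in TAM 111 at heading, dry minus wet, was 0.63 with them and 0.76 without. The tubb2 difference between the cultivars at heading was 0.17 with them and 0.04 without.

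At grain filling, dry leaves of TAM 112 had lower tubb2 and tubb3 signals than wet ones, and dry leaves of TAM 111 had higher tubb1 and tubb2 and lower tubb3 signals. These are the values by which the genes were selected, among 31.6% of all tested probe sets called in TAM 112 and 18.9% in TAM 111 in the same limma fit, and nothing is read from that share. Dry and wet arrays did not overlap for 38.8% of tested probe sets in TAM 112 and for 35.4% in TAM 111.

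The probe set of tubb1 gave 1797, 1779 and 2228 in dry TAM 112 leaves at grain filling, against 1667, 2641 and 3061 in wet ones, and the groups overlapped. In TAM 111 it gave 4466, 4040 and 5563 in dry leaves, against 1434, 1985 and 2130 in wet leaves. The lowest dry TAM 111 array was thus well above the highest wet one, and the dry TAM 111 group was the brightest of the 8 for this gene. The log2 difference, dry minus wet, was -0.31 (SE 0.236) in TAM 112 and 1.34 (SE 0.236), a 2.54-fold higher signal, in TAM 111.

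The probe set of tubb2 gave 423, 403 and 582 in dry TAM 112 leaves at grain filling, against 770, 993 and 1258 in wet ones. In TAM 111 it gave 1637, 1086 and 2340 in dry leaves, against 726, 1011 and 996 in wet leaves. Dry and wet arrays were separate in both cultivars but in opposite directions, and in TAM 111 the separation was narrow, since dry replicate 2 lay just above the wet arrays. The log2 difference was -1.07 (SE 0.282), 2.1-fold lower, in TAM 112 and 0.83 (SE 0.282), 1.77-fold higher, in TAM 111.

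The probe set of tubb3 gave 1745, 1915 and 2754 in dry TAM 112 leaves at grain filling, against 5891, 4708 and 5484 in wet ones. In TAM 111 it gave 3703, 3395 and 4400 in dry leaves, against 5951, 6459 and 4954 in wet leaves. Every dry array lay below every wet array of its cultivar. The log2 difference was -1.34 (SE 0.149), 2.54-fold lower, in TAM 112 and -0.59 (SE 0.149), 1.51-fold lower, in TAM 111. Without dry TAM 112 replicate 3, the brightest of its group, the TAM 112 value was -1.54.

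The difference of the dry minus wet change between the cultivars at grain filling, TAM 112 minus TAM 111, was negative for all 3 genes, -1.65 (SE 0.334) for tubb1, -1.90 (SE 0.399) for tubb2 and -0.75 (SE 0.211) for tubb3. It is made of the values by which the genes were picked and was not tested. Other measures also moved with water at this stage. Of 18 tested photosynthesis probe sets, 6 fell and 0 rose in dry TAM 112 leaves, and 4 fell and 0 rose in dry TAM 111 leaves, shares near the 31.6% and 18.9% called among all tested probe sets. The summed signal of the photosynthesis genes was 178409 to 194786 in dry TAM 112 leaves, against 241489 to 260189 in wet ones, and 175304 to 184781 in dry TAM 111 leaves, against 212565 to 256074 in wet ones. The part of this sum in the tubulin values was not tested.

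The array holds 3' and 5' probe sets of 3 control genes, whose ratio is used to judge how intact the RNA is. The 3 ratios did not agree in sign at grain filling. Group means were positive for actin, negative for GAPDH and of both signs for EF1a. At grain filling the log2 3'/5' ratio of GAPDH was -1.06 ± 0.487 in dry and -2.73 ± 1.25 in wet TAM 112 leaves (SD, n = 3), and -1.7 ± 0.735 in dry and -2.43 ± 0.48 in wet TAM 111 leaves. That of actin was 1.11 ± 1.96 in dry and 1.2 ± 0.504 in wet TAM 112 leaves, and 2.19 ± 2.18 in dry and 1.5 ± 1.26 in wet TAM 111 leaves. That of EF1a was 0.825 ± 3.82 in dry and -0.341 ± 0.768 in wet TAM 112 leaves, and 0.029 ± 0.785 in dry and -0.968 ± 0.717 in wet TAM 111 leaves. Dry and wet arrays were narrowly separate for GAPDH in TAM 112, overlapped for it in TAM 111 and overlapped for actin and EF1a in both cultivars. The part of these ratios in the tubulin values was not tested.

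**Figure D1:**
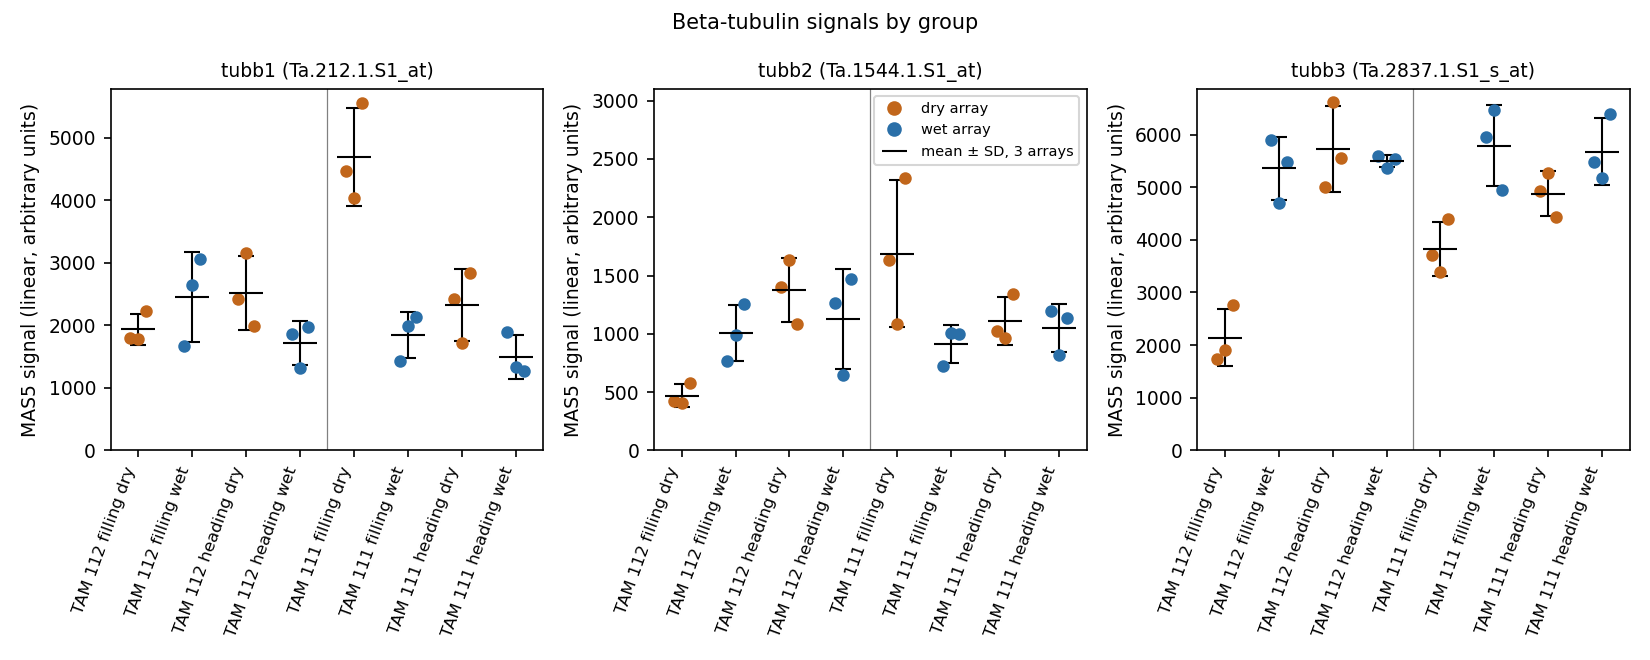
MAS5 signal (linear, from 0) of tubb1, tubb2 and tubb3 on each of the 24 arrays, by group, with the group mean and SD of 3 arrays. Dry TAM 111 leaves at grain filling stand highest for tubb1 (mean 4689), and dry TAM 112 leaves at grain filling stand lowest for tubb2 (469) and tubb3 (2138).

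Across the 8 groups, most neighbours in the order of the means overlapped. For tubb1 the dry TAM 111 leaves at grain filling (4689 ± 786, SD, n = 3) were clear of the next group, dry TAM 112 leaves at heading (2524 ± 594). From there the means ran down to 1497 ± 348 in wet TAM 111 leaves at heading with every pair of neighbours overlapping. For tubb2 the means ran from 1687 ± 629 in dry TAM 111 leaves at grain filling to 911 ± 161 in wet ones, again with overlap between neighbours, and only dry TAM 112 leaves at grain filling (469 ± 97.8) stood clear, at the bottom. For tubb3, 6 groups lay between 4879 ± 420 and 5788 ± 766 with overlapping neighbours. Below them were dry TAM 112 leaves at grain filling (2138 ± 540) and dry TAM 111 leaves at grain filling (3832 ± 515), separate from each other and from the rest.

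Over all arrays tubb2 ranged most, 5.8-fold between its dimmest and brightest array (403 to 2340). The range was 4.39-fold for tubb1 (1266 to 5563) and 3.79-fold for tubb3 (1745 to 6615). In tubb3 the wet arrays of both cultivars and stages stayed within 4708 to 6459.

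The heading arrays were not used to choose the genes and allow the water comparison to be tested. None of the 3 genes was called at heading in either cultivar, in a fit that called 3.6% of tested probe sets in TAM 112 and 4.54% in TAM 111. The signal of tubb1 was 2416, 3164 and 1991 in dry TAM 112 leaves, against 1864, 1321 and 1972 in wet ones, so that the dry arrays all lay above the wet arrays. Such a separation, in either direction, held for 23.4% of tested probe sets in TAM 112 and 23.8% in TAM 111. In TAM 111 tubb1 gave 2430, 1712 and 2837 in dry leaves, against 1897, 1327 and 1266 in wet leaves, with dry replicate 2 below wet replicate 1. The log2 change of tubb1 was 0.55 (95% CI 0.06 to 1.04, adjusted p = 0.246 in limma) in TAM 112 and 0.63 (0.13 to 1.12, adjusted p = 0.153) in TAM 111. In each cultivar tubb1 was the 1 of the 3 genes with an unadjusted p below 0.05, but the p adjusted over all probe sets missed the threshold. An unadjusted p below 0.05 was reached by 6004 of the 37516 tested probe sets in TAM 112 and by 6378 in TAM 111.

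Dry and wet heading arrays of tubb2 and tubb3 overlapped in both cultivars. In TAM 112, tubb2 gave 1404, 1633 and 1083 in dry leaves, against 1268, 648 and 1466 in wet leaves. In TAM 111 it gave 1026, 963 and 1342 in dry leaves, against 1197, 819 and 1139 in wet leaves. The log2 change was 0.34 (95% CI -0.24 to 0.93, limma adjusted p = 0.621) in TAM 112 and 0.08 (-0.50 to 0.67, adjusted p = 0.929) in TAM 111.

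For tubb3, dry TAM 112 leaves at heading gave 5011, 6615 and 5555, against 5587, 5367 and 5543 in wet ones. Dry TAM 111 leaves gave 4926, 5273 and 4437, against 5475, 5167 and 6386 in wet ones. The log2 change of tubb3 was 0.05 (95% CI -0.26 to 0.36, limma adjusted p = 0.924) in TAM 112 and -0.22 (-0.53 to 0.09, adjusted p = 0.52) in TAM 111.

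The cultivars were not shown to differ in their heading response for any of the 3. The difference of the dry minus wet change, TAM 112 minus TAM 111, was -0.08 (95% CI -0.77 to 0.61, limma adjusted p = 0.999) for tubb1, 0.26 (-0.57 to 1.09, adjusted p = 0.991) for tubb2 and 0.26 (-0.17 to 0.70, adjusted p = 0.984) for tubb3. This test called 1 probe set of all tested (0.00267%), with 1923 at an unadjusted p below 0.05, of which 0 were members. At heading the log2 3'/5' ratio of actin was 0.793 ± 1.34 in dry and 0.611 ± 0.938 in wet TAM 112 leaves (SD, n = 3), and 1.76 ± 0.626 in dry and 0.12 ± 0.264 in wet TAM 111 leaves. That of GAPDH was -1.15 ± 0.357 in dry and -0.94 ± 0.411 in wet TAM 112 leaves, and -1.34 ± 0.748 in dry and -1.43 ± 0.747 in wet TAM 111 leaves. That of EF1a was -2.31 ± 2.07 in dry and -1.23 ± 1.39 in wet TAM 112 leaves, and -1.78 ± 2.07 in dry and -2.03 ± 1.67 in wet TAM 111 leaves. Among these the dry and wet arrays were separate for actin in TAM 111 alone. The part of the ratios in the tubulin values was not tested.

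**Figure D2:**
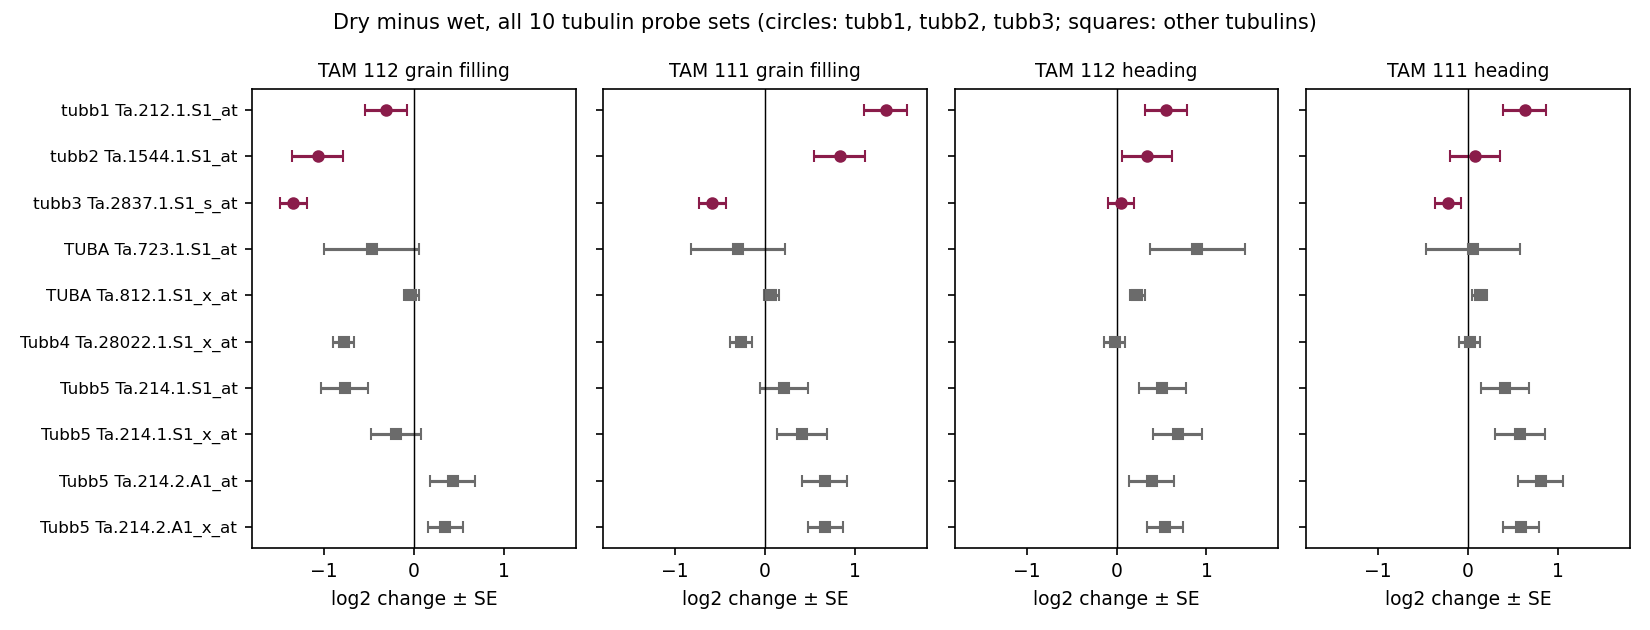
Log2 change, dry minus wet, with its SE, of the 10 tubulin probe sets in TAM 112 and TAM 111 at grain filling and at heading; circles are tubb1, tubb2 and tubb3, squares the other tubulins. At grain filling tubb2 lies at -1.07 in TAM 112 and at 0.83 in TAM 111, while at heading it lies at 0.34 and 0.08.

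From heading to grain filling, averaged over both water treatments, tubb2 and tubb3 fell in TAM 112 and tubb1 rose in TAM 111. These averages include the dry grain filling arrays, whose difference from the wet ones chose the genes, so their p-values are no evidence independent of that choice. In TAM 112 the grain filling minus heading change was -0.82 (SE 0.2) for tubb2, 1.76-fold lower (limma adjusted p = 0.0034), and -0.74 (SE 0.106) for tubb3, 1.67-fold lower (adjusted p = 2.14e-05). For tubb1 it was 0.06 (95% CI -0.28 to 0.41, limma adjusted p = 0.829). These are 2 calls among 3 genes where 29.4% of all tested probe sets were called, and where 7 of 18 photosynthesis probe sets fell and 1 rose. In TAM 111 tubb1 rose 1.59-fold (0.67, SE 0.167, limma adjusted p = 0.00809), where 16.7% were called. Without the 3 intermediate arrays the tubb1 value was 0.50 (limma adjusted p = 0.113), and the call ended.

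In TAM 111, tubb2 and tubb3 passed in neither direction between the stages. Their changes were 0.17 (95% CI -0.24 to 0.59, limma adjusted p = 0.63) for tubb2 and -0.16 (-0.38 to 0.06, adjusted p = 0.333) for tubb3. The difference between the cultivars in the stage change, a comparison added after the data were seen, was -0.99 (95% CI -1.57 to -0.40) for tubb2, -0.58 (-0.89 to -0.27) for tubb3 and -0.60 (-1.09 to -0.11) for tubb1. It too includes the dry grain filling arrays, so its p-values, with or without an array left out, are not independent of the choice of the genes. All 3 had an unadjusted p below 0.05, and none passed after adjustment (limma adjusted p = 0.343 for tubb2, 0.291 for tubb3 and 0.485 for tubb1). This comparison called 1 probe set in all (0.00267%), with 3282 at an unadjusted p below 0.05, but 274 without dry TAM 112 replicate 3 of grain filling. Without that array tubb3 was among those called (-0.67, limma adjusted p = 0.02).

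Within each water treatment the stage values differed. In dry TAM 112 leaves the grain filling minus heading change was -1.52 (SE 0.282) for tubb2, 2.88-fold lower, and -1.44 (SE 0.149) for tubb3, 2.71-fold lower. In wet TAM 112 leaves it was -0.11 for tubb2 and -0.04 for tubb3, each less than its SE. For tubb1 in TAM 112 it was -0.36 (SE 0.236) in dry leaves and 0.49 (SE 0.236, 95% CI -0.00 to 0.98) in wet leaves, which average to the 0.06 above. In TAM 111, tubb1 gave 1.03 (SE 0.236) in dry leaves and 0.31 (SE 0.236) in wet leaves. These values within a water treatment share arrays with the comparison that chose the genes and carry no test.

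At heading, averaged over water, TAM 112 and TAM 111 were not shown to differ: TAM 112 minus TAM 111 was 0.16 (95% CI -0.19 to 0.51, limma adjusted p = 0.767) for tubb1, 0.17 (-0.25 to 0.58, adjusted p = 0.807) for tubb2 and 0.09 (-0.13 to 0.31, adjusted p = 0.796) for tubb3. Of all tested probe sets 4.89% were called there, and 0 of the 3 members had an unadjusted p below 0.05. The grain filling comparison of the cultivars is made of the 12 arrays whose dry minus wet change chose the genes, and its p-values are likewise not independent of that choice. There, where 10.9% were called, tubb2 was 1.77-fold lower in TAM 112 (-0.82, SE 0.2, limma adjusted p = 0.00911) and tubb3 1.4-fold lower (-0.48, SE 0.106, adjusted p = 0.00395). For tubb1 the value was -0.44 (95% CI -0.79 to -0.10, limma adjusted p = 0.0956), not called, and it passed at 0.0493 without wet TAM 112 replicate 3 of grain filling.

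In dry leaves at grain filling TAM 112 lay below TAM 111 for every one of the 3 genes, by -1.27 (SE 0.236) for tubb1, -1.77 (SE 0.282) for tubb2 and -0.86 (SE 0.149) for tubb3 on the log2 scale. In wet leaves the differences were 0.38, 0.13 and -0.11 for the same genes. For tubb2, dry arrays at grain filling gave 403 to 582 in TAM 112, against 1086 to 2340 in TAM 111, whereas wet arrays gave 770 to 1258 in TAM 112, against 726 to 1011 in TAM 111. The averaged cultivar difference of tubb2 and tubb3 at grain filling is thus the mean of a large dry value and a small wet one.

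**Figure D3:**
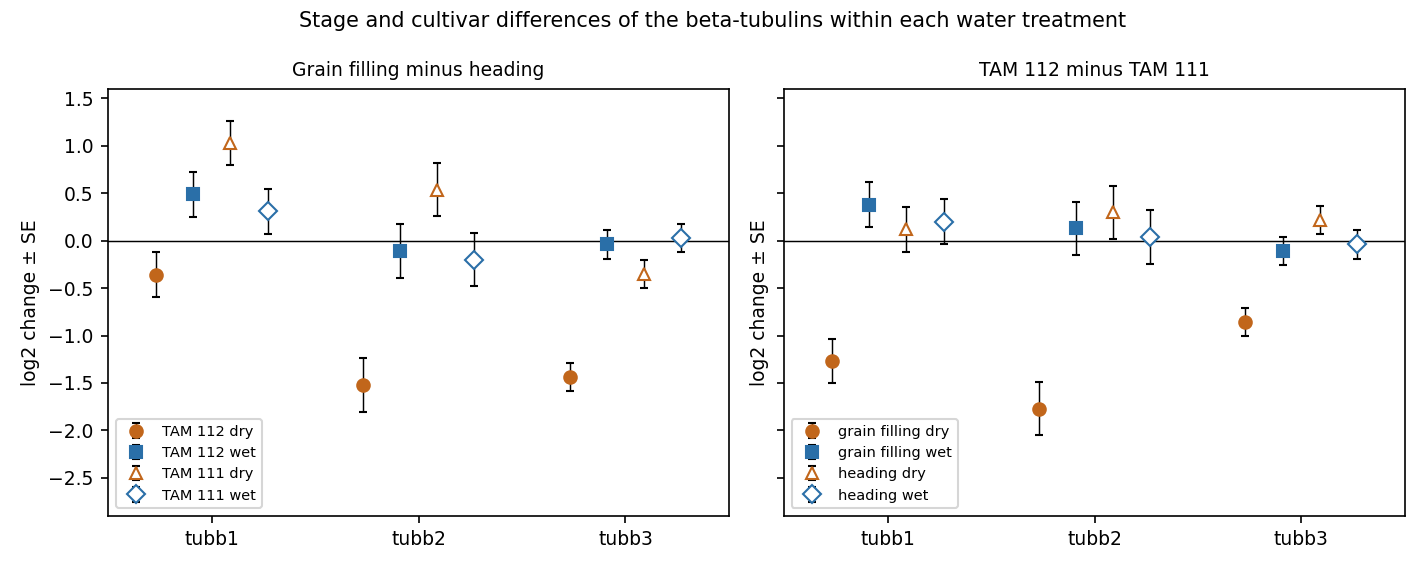
Log2 differences with their SE within each water treatment: grain filling minus heading in dry and wet leaves of TAM 112 and TAM 111, and TAM 112 minus TAM 111 in dry and wet leaves at grain filling and heading. The dry values of TAM 112 at grain filling stand apart for tubb2 (-1.52 between stages, -1.77 between cultivars), while the wet values of tubb2 and tubb3 lie between -0.20 and 0.13.

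Replicates of a group also varied together in tubb1 and tubb2. With each group's mean taken out, the deviations of tubb1 and tubb2 correlated at Pearson r = 0.83 over the 24 arrays. The 2-sided p from 100000 permutations within groups was 2e-05, and 6e-05 adjusted over the 3 pairs. Spearman rho was 0.85 (permutation p = 2e-05). The correlation was positive within 8 of 8 groups, the deviations had the same sign on 20 of 24 arrays, and r was 0.84 without the 2 arrays farthest out in tubb1. In wet TAM 112 leaves at heading, for example, replicate 2 was the dimmest for both genes, at 1321 for tubb1 and 648 for tubb2, and replicate 3 the brightest, at 1972 and 1466. Of the other 37515 tested probe sets, 9 reached r = 0.8 with tubb1 and 5 with tubb2. This relation was computed after the data were seen and does not use the differences between groups. Whether the probes of tubb1 and tubb2 also bind each other's transcripts was not tested.

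The tubb3 deviations followed those of neither gene closely. With tubb1, r was 0.07 (permutation p = 0.754, also adjusted) and rho was 0.00 (permutation p = 0.995), with r = 0.24 without the 2 farthest arrays. With tubb2, r was 0.35 (permutation p = 0.105, 0.157 adjusted) and rho was 0.33 (permutation p = 0.162), with r = 0.31 without the 2 farthest arrays. Within a pair of genes the deviations of single arrays share that array's scaling, and the median r of each gene with all other probe sets was 0.01 to 0.02.

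**Figure D4:**
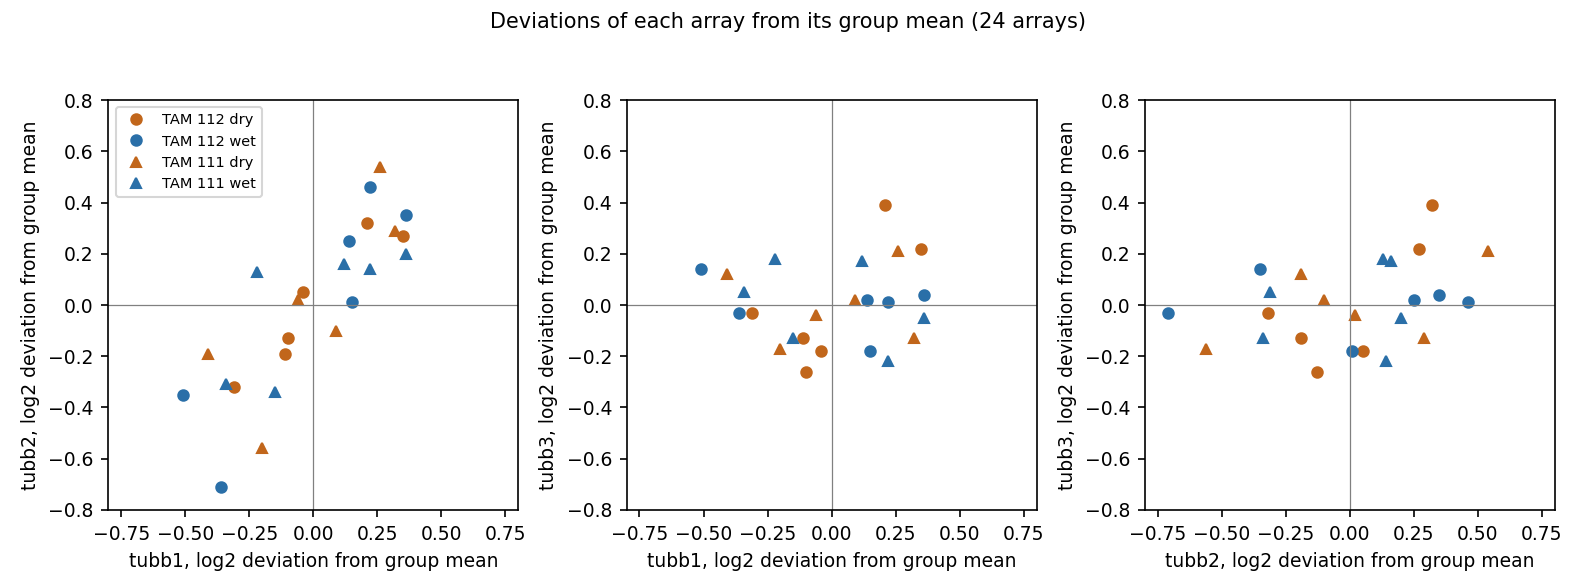
Deviation of each of the 24 arrays from its group mean on the log2 scale, for the 3 pairs of genes; circles are TAM 112 and triangles TAM 111, with dry and wet arrays in separate colours. The points of tubb1 and tubb2 rise together (r = 0.83), those of tubb1 and tubb3 show no slope (r = 0.07).

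The other named tubulins were read by 7 probe sets of 3 genes, all of them tested: Tubb4 (Ta.28022.1.S1_x_at), Tubb5 with 4 probe sets, and the alpha-tubulin TUBA with 2. Probe sets whose name ends in _x_at hold probes that may bind related transcripts, and those ending in _s_at, such as that of tubb3, match several transcripts, so near-identical tubulin copies cannot be told apart in them. Tubb4 went the way of tubb3. It gave 1528, 1545 and 2229 in dry TAM 112 leaves at grain filling, against 3085, 3146 and 2743 in wet ones, and fell 1.71-fold (-0.78, SE 0.119, limma adjusted p = 2.92e-05). In TAM 111 it gave 2343, 2130 and 2258 in dry leaves, against 2561, 3041 and 2561 in wet ones. The dry TAM 111 arrays lay below the wet ones, but the change of -0.27 was not called (limma adjusted p = 0.12). Between the stages, averaged over water, Tubb4 fell 1.36-fold in TAM 112 (limma adjusted p = 3.72e-04).

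Of the 7 other probe sets, 5 fell and 0 rose from heading to grain filling in TAM 112, where 29.4% of all tested probe sets were called. The 5 were those of Tubb4 and Tubb5. The median change over the 7 was -0.59, against -0.03 over all tested probe sets, and it was the value of a Tubb5 probe set, Ta.214.1.S1_x_at. TUBA gave 0.00 on Ta.812.1.S1_x_at and -0.80 on Ta.723.1.S1_at, neither called. Tubb5 fell 1.99-fold on Ta.214.2.A1_at (limma adjusted p = 1.94e-04) and 1.9-fold on Ta.214.2.A1_x_at (adjusted p = 3.67e-05). It fell 1.49-fold on Ta.214.1.S1_at (adjusted p = 0.0247) and 1.5-fold on Ta.214.1.S1_x_at (adjusted p = 0.0249), calls that ended on leaving out any 1 of 5 arrays for each. Within each water treatment of TAM 112, Ta.214.2.A1_at gave -0.97 in dry and -1.01 in wet leaves. Ta.214.2.A1_x_at gave -1.02 in dry and -0.83 in wet leaves. Tubb4 gave -0.82 in dry and -0.07 in wet leaves, Ta.214.1.S1_at -1.21 and 0.07, and Ta.214.1.S1_x_at -1.03 and -0.15. The falls of Tubb4, Ta.214.1.S1_at and Ta.214.1.S1_x_at thus lay mostly in dry leaves, as did those of tubb2 and tubb3. Differences between probe sets in this were not tested. None of the 7 was called between the stages in TAM 111 (1 at an unadjusted p below 0.05 in limma), between the cultivars at grain filling (1) or heading (2), or for the difference of stage changes (3).

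The 4 Tubb5 probe sets did not give 1 picture of the dry treatment at grain filling. In TAM 112, Ta.214.1.S1_at gave 100 to 202 in dry leaves, against 218 to 274 in wet ones, and fell 1.7-fold (-0.77, limma adjusted p = 0.0304). That call ended after quantile normalization (-0.64, limma adjusted p = 0.059). The other 3 gave -0.20, 0.43 and 0.35, none called. On Ta.214.2.A1_at and Ta.214.2.A1_x_at, at 0.43 and 0.35, every dry array lay above every wet one, and on Ta.214.1.S1_at below. In TAM 111 the 4 values were 0.21 to 0.67, and only Ta.214.2.A1_x_at rose (1.59-fold, limma adjusted p = 0.0196). That probe set gave 518 to 615 in dry TAM 111 leaves, against 289 to 425 in wet ones, and its call ended without the 3 intermediate arrays (0.68, limma adjusted p = 0.0554).

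At heading the 4 Tubb5 changes lay between 0.39 and 0.68 in TAM 112 and between 0.41 and 0.81 in TAM 111. Of the 7 other tubulin probe sets, limma called 0 in either cultivar, with 3 at an unadjusted p below 0.05 in each. Such a p was reached by 6004 of all 37516 tested probe sets in TAM 112 and by 6378 in TAM 111. The median over the 7 was 0.51 in TAM 112 and 0.41 in TAM 111, against -0.00 and 0.03 over all tested probe sets. Since 4 of the 7 read Tubb5, each median was the value of a Tubb5 probe set, Ta.214.1.S1_at. Tubb4 gave -0.02 in TAM 112 and 0.02 in TAM 111. TUBA gave 0.23 and 0.13 on Ta.812.1.S1_x_at, and 0.90 and 0.06 on Ta.723.1.S1_at. Without wet TAM 112 replicate 3, Ta.214.1.S1_x_at (1.04, limma adjusted p = 0.0289) and Ta.214.2.A1_x_at (0.79, adjusted p = 0.024) passed in TAM 112. The alpha-tubulin TUBA was bright and even on Ta.812.1.S1_x_at, at 5942 to 8137 over the 24 arrays, and dim on Ta.723.1.S1_at, above 69.0 on 4 arrays only. Neither was called in any comparison.

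The deviations from the group means set 3 of the 4 Tubb5 probe sets beside tubb1 and tubb2. They correlated at 0.75, 0.69 and 0.70 with tubb1 and at 0.71, 0.61 and 0.61 with tubb2, and at 0.03, -0.19 and -0.21 with tubb3 (Ta.214.1.S1_x_at, Ta.214.2.A1_at and Ta.214.2.A1_x_at). Tubb4 correlated at 0.67 with tubb3, 0.27 with tubb2 and 0.21 with tubb1. These 24 arrays share their scaling, the 4 Tubb5 probe sets share a gene, and the correlations are given as a description.

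Over the 8 group means the members differed in how many probe sets ran like them. At r of at least 0.9 there were 1286 of 37515 for tubb3 (3.43%), 43 for tubb2 (0.115%) and 33 for tubb1 (0.088%), and at r of at most -0.9 there were 1184, 14 and 30. Among the 132 probe sets with a named gene, Tubb4 (0.952), the Calvin cycle enzyme FBP (0.943) and the plastid thioredoxin Trx-M (0.93) were most like tubb3. For tubb2 they were NCBP, an mRNA cap-binding protein (0.797), Tubb5 on Ta.214.1.S1_x_at (0.736) and Prx1 (0.734). For tubb1 they were TBP1 (0.732), the phytochelatin synthase TaPCS1 (0.701) and the glyoxalase gene lgul (0.7). Among themselves the members gave 0.54 for tubb1 with tubb2, 0.65 for tubb2 with tubb3 and -0.20 for tubb1 with tubb3. With 8 points these are descriptions.

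The genes nearest to tubb1 shared only parts of its pattern. Group means of TBP1 ran only from 889 ± 23.8 to 1116 ± 90.9 (SD, n = 3). In TAM 111 leaves at grain filling, lgul gave 3989 ± 280 when dry and 3726 ± 632 when wet. TaPCS1, like tubb1, was brightest in dry TAM 111 leaves at grain filling (771 ± 243, against 288 ± 65.7 in wet ones, SD, n = 3), but it was also brighter in dry than in wet TAM 112 leaves (663 ± 106, against 477 ± 30.4), where tubb1 was not. FBP followed tubb3 in both cultivars, at 10024 ± 1709 in dry and 16728 ± 637 in wet TAM 112 leaves and at 12333 ± 354 in dry and 15654 ± 497 in wet TAM 111 leaves of the same stage.

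Related gene groups were few among the named probe sets. No gene of tubulin folding, kinesins or other microtubule proteins was matched. Profilin-1, an actin-binding protein with 2 probe sets, was not called by limma in any comparison, with both at an unadjusted p below 0.05 between the cultivars and between dry and wet TAM 111 leaves at grain filling. In the cell wall group, made of 2 genes, COMT1 encodes a methyltransferase of lignin synthesis. In dry TAM 111 leaves at heading it fell 1.53-fold (limma adjusted p = 0.0241). At grain filling it rose 1.43-fold in dry TAM 112 leaves (limma adjusted p = 0.014) and 1.46-fold in dry TAM 111 leaves (adjusted p = 0.0157). COMT1 also rose 1.51-fold from heading to grain filling in TAM 111 (limma adjusted p = 7.30e-04), while XTH, a wall-loosening enzyme gene, was not called.

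Histones and HMG proteins pack chromatin. From heading to grain filling, of 15 tested probe sets of 5 such genes, 8 fell and 0 rose in TAM 112 and 9 fell and 0 rose in TAM 111, where 29.4% and 16.7% of all tested probe sets were called. The medians over the 15 were -0.70 in TAM 112 and -0.53 in TAM 111, against -0.03 and -0.02 over all tested probe sets. On Ta.7378.35.S1_x_at, wcH2B-8 fell 2.8-fold in TAM 112 (limma adjusted p = 5.21e-08) and 1.93-fold in TAM 111 (adjusted p = 2.07e-05). In TAM 112 the falls of tubb2 and tubb3 over the same stages, also averaged over water, were 1.76-fold and 1.67-fold. They lay in dry leaves (-1.52 and -1.44), with -0.11 and -0.04 in wet ones, and include the arrays that chose the genes. Whether the histone and tubulin falls are related was not tested. Dry against wet at grain filling, 3 histone and HMG probe sets fell and 1 rose in TAM 112, and 3 fell and 0 rose in TAM 111, shares near the 31.6% and 18.9% called among all tested probe sets. At heading limma called 0 in either cultivar, with 2 in TAM 112 and 1 in TAM 111 at an unadjusted p below 0.05.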

How the data were processed

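RNA of 24 flag leaf samples was measured, 1 array each. The authors deposited 1 linear MAS5 intensity for each probe set of an array, and per the submitters' processing notes the tool was MAS5, given without a version. The trimmed mean (2% from each end) was 500.1 on every array, and array medians ran from 60.39 to 77.16. Of 61290 probe sets, 111 controls were left out, and 37516 of the other 61179 (61.3%) exceeded 69.0, the overall median, on at least 3 arrays and were tested. The tests used log2 of the deposited signal plus 11.71, its 20th percentile, and a fold change is on this scale.

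In R 4.3.3, limma 3.58.1 fitted a mean for each of the 8 groups and moderated the variances along a trend with the mean, with 16 degrees of freedom from the residuals and 5.53 from the prior. P-values were adjusted by the Benjamini-Hochberg method over all tested probe sets, with a threshold of 0.05, and intervals cover 95%. The fit was tested on simulated data. Precision is limited by the number of arrays. Probe sets were named through GEO's platform annotation, which paired 1273 with 1 gene, 0 with several and 59906 with none. Of its 771 genes, 770 were found in RefSeq's IWGSC CS RefSeq v2.1 table, used for names only. No column was unmapped (0).

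The members, the tubulin group and the other lists were chosen with earlier results of these data known. Named genes are the members, every other named tubulin, the genes most like each member over the group means, and examples from each list, mostly those of smallest p. The stage difference between cultivars and the deviations were added after the data were seen. Alternatives were another pseudocount (1, or 4 times as large), quantile normalization, no filter or a stricter one (above 385.6, the 75th percentile), no variance trend, array weights, a block for the replicate number, a fit on the compared groups alone, and leaving out arrays. Replicate numbers were checked for pairing. The deviations of same-numbered arrays correlated at -0.0948 to 0.215 (median 0.0164, 84 pairs), those of other arrays at -0.175 to 0.112 (median -0.00504, 168 pairs). A correlation above 0.1 occurred in 7 same-numbered pairs and in 2 of the others. The main fit did not take the numbers to pair samples, and the replicate block was fitted as an alternative. No sequences of these genes or probes were used here.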

Additional observations from a re-analysis of the deposited data

Results flagged for a closer look

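The tubb2 change under dry conditions at grain filling had opposite directions in the cultivars, with every dry array below every wet one in TAM 112 (-1.07 on the log2 scale) and above in TAM 111 (0.83). Dry and wet arrays did not overlap for 38.8% of tested probe sets in TAM 112 and for 35.4% in TAM 111. The tubb2 difference between the cultivars was not tested, since the gene was chosen by these values.

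Tubb5 on Ta.214.1.S1_at had opposite directions at the stages in TAM 112. Every dry array lay below every wet one at grain filling (-0.77), and above at heading (0.51). Such a separation, in either direction, held for 38.8% of tested probe sets at grain filling and 23.4% at heading. The grain filling call held in 2 of 6 refits with 1 array left out. On Ta.214.2.A1_at and Ta.214.2.A1_x_at of the same gene, every dry array at grain filling lay above every wet one (0.43 and 0.35, neither called). The difference between the stages was not tested. No result of Dixon's test of a single outlying value is given for these groups of 3 arrays.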

How the results depend on the processing

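Over 33 values of the 3 members, 342 of 345 alternatives other than leaving out 1 array kept the direction and the side of the threshold. The exceptions were the TAM 111 stage changes. For tubb1 the rise of 0.67 was 0.50 without the 3 intermediate arrays and 0.55 without the 4 arrays numbered 2 of TAM 111 (limma adjusted p = 0.113 and 0.117), fits with fewer arrays. For tubb2 the 0.17 was 0.00, with a negative sign, without the 3 intermediate arrays. The cause was not tested. Quantile normalization moved the median of all tested probe sets by up to 0.09 and changed no member call. With the replicate block, the tubb2 cultivar difference at grain filling was -0.82 (limma adjusted p = 0.00327), and no member call changed.

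Leaving out 1 array at a time was counted as unchanged in 378 of 396 refits. This count is not of direction and call alone. The tubb3 dry minus wet value in TAM 112 at grain filling was counted as unchanged in 5 of 6 refits, though it kept its direction and carries no call. The calls of tubb2 and tubb3 between stages in TAM 112 (-0.99 to -0.70 and -0.84 to -0.67) and between cultivars at grain filling (-0.96 to -0.69 and -0.58 to -0.42) held in every refit. All stage comparisons, and the cultivar comparison at grain filling, include the dry grain filling arrays. Leaving out 1 array does not make the p-values of these comparisons independent of the choice of the genes. The tubb1 cultivar value ran from -0.53 to -0.31 and passed (limma adjusted p = 0.0493) without wet TAM 112 replicate 3. The tubb3 difference of stage changes ran from -0.67 to -0.51 and passed (0.02) without dry TAM 112 replicate 3, and the tubb3 dry minus wet value in TAM 112 at grain filling ran from -1.54 to -1.21. Values near 0 changed sign in some refits. They were the tubb1 stage change in TAM 112 (-0.03 to 0.19), the heading change of tubb2 in TAM 112 (-0.01 to 0.57) and TAM 111 (-0.09 to 0.18), that of tubb3 in TAM 112 (-0.06 to 0.14), the heading difference between cultivars of tubb1 (-0.28 to 0.08) and tubb2 (-0.09 to 0.49), and the tubb1 with tubb3 correlation (-0.07 to 0.21).

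For Tubb5 on Ta.214.1.S1_at, dry minus wet in TAM 111 at grain filling (0.21) was 0.00, with a negative sign, without the 3 intermediate arrays, -0.28 without the 4 numbered 2, and -0.07 to 0.43 with 1 array left out. Its TAM 112 call (-0.77) ended with only the arrays compared (limma adjusted p = 0.0805) and without any 1 of 4 arrays, namely dry replicate 1 or 2 and wet replicate 1 or 3 (up to 0.184). Its stage call in TAM 112 (-0.69 to -0.45) ended without heading wet replicate 1 or 3, heading dry 2, grain filling wet 2 or grain filling dry 1. That of Ta.214.1.S1_x_at (-0.74 to -0.41) ended without heading wet 3, heading dry 2, grain filling wet 1 or 2, or grain filling dry 1. The TAM 111 call of Ta.214.2.A1_x_at also ended without dry replicate 2 or 3, or wet replicate 1. Ta.214.2.A1_at passed for dry minus wet in TAM 111 with the replicate block, at heading (0.81, limma adjusted p = 0.0449) and grain filling (0.66, 0.0487), and at heading also with the stricter filter, array weights or without dry replicate 2. Under the stricter filter Ta.214.1.S1_at was not tested.

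Counts of called probe sets moved by over 1.5 times in some settings. The heading count in TAM 111, 1705, was 857 without the 3 intermediate arrays, 758 without the 4 numbered 2, 2595 with array weights and 796 to 1530 with 1 array left out. In TAM 112 the 1351 became 479 to 1176. The TAM 111 stage count, 6253, became 3690 and 2567 without these arrays. At grain filling the TAM 111 count of 7096 was 3867 without the 4 numbered 2, and the TAM 112 count of 11869 was 7794 with only the arrays compared. The heading difference between cultivars, 1, gave 0 to 2, and the difference of stage changes, 1, gave 0 to 18, or 1 to 274 with 1 array left out. With 3 arrays in a group, few degrees of freedom limit every value.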
